A study of Drosophila melanogaster with 2 samples.

Results

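Small nucleolar RNAs (snoRNAs) are short non-coding RNAs that guide the chemical modification of ribosomal and small nuclear RNAs in the nucleolus and in Cajal bodies. Box C/D snoRNAs direct 2'-O-methylation through fibrillarin, and box H/ACA snoRNAs direct pseudouridylation through dyskerin, which is Nop60B in Drosophila. In flies most snoRNAs lie in introns of a host gene and are cut from its spliced transcript, so the promoter of the host drives their synthesis. Some hosts encode ribosomal proteins, and others, named Uhg, are non-coding genes.

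HmgZ belongs to the high mobility group box family, chromatin proteins whose box binds and bends DNA. Its positions at 269 snoRNA genes of the main chromosome arms, of 17896 annotated genes in all, and at their 94 host genes were examined. The members were all genes of biotype snoRNA in the Ensembl annotation, and a host was any gene other than an snoRNA, pseudogene or transposable element whose body held the whole snoRNA on the same strand. Of the 269 snoRNAs, 236 had 1 host, 11 had 2 overlapping hosts and 22 had none. Of these 22, 10 lay inside a gene on the opposite strand. Most names matched the box elements in the sequence. Among the 106 genes named Psi, which marks a guide for pseudouridylation, 102 had the bases ACA ending 2 to 5 bases before the 3' end. Among the 77 named Me, a guide for methylation, 59 had TGATGA in the first 15 bases and CTGA in the last 15.

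The data are chromatin immunoprecipitation and sequencing (ChIP-seq) of embryos of Drosophila melanogaster, mixed in sex and aged 4 to 24 h, from 1 transgenic line in which HmgZ carries green fluorescent protein (eGFP) at its C-terminus. All samples carried the fusion and there were 2 biological replicates, numbered 3 and 1, with no second condition. The promoter that drives the fusion and any remaining untagged HmgZ are not described in the labels, no untagged ChIP was analysed here, both replicates share 1 control alignment, and an entire embryo mixes all cell types. Both samples are called input controls in a free-text field, but they list an antibody and have HmgZ regions of their own. The age above is the one in the source name, as another field holds hours that cannot apply to an embryo. Sequencing depth is unknown because the files hold regions and no read counts. The thresholded list held 6844 regions that passed the irreproducible discovery rate (IDR) procedure of the authors, on dm6. A gene was counted as having a summit when the summit of such a region lay within 250 bp of one of its transcription start sites (TSSs), or of the snoRNA's own start. With 1 condition and 2 replicates no test between samples is possible, so counts are set beside those of other genes and each replicate's own list gives the error.

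Sequences at 3 starts show the arrangements described below, printed in the direction of transcription from the RefSeq copy of the dm6 assembly. The first 2 are 300-base stretches around snoRNAs without a host that had a summit just upstream, with the snoRNA gene in capitals. The third is the start of Uhg2 with the first part of the first snoRNA in it in capitals, 96 bp from the TSS.
snoRNA:Psi18S-301 (chr3R:20574776-20575075, plus strand): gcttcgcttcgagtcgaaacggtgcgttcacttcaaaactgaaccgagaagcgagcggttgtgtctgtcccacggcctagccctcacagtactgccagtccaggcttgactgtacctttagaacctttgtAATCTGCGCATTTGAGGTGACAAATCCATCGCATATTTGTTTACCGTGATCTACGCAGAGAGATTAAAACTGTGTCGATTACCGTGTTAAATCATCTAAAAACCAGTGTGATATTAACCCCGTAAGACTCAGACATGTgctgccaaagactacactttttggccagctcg
snoRNA:Psi28S-3342 (chrX:5524296-5524595, minus strand): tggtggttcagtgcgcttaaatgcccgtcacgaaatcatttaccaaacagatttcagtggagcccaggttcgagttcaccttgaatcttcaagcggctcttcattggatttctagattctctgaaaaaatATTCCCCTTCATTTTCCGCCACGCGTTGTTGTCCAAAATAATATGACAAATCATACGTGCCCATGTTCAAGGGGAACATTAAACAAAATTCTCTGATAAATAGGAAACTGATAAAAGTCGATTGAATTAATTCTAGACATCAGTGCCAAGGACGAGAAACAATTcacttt
Uhg2 (chr2L:9894827-9895083, minus strand): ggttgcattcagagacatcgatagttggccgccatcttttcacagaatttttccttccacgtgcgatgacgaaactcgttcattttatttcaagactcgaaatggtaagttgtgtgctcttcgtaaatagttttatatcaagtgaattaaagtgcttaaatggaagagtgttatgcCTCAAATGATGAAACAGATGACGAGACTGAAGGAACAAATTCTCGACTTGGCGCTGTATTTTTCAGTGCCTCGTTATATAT

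HmgZ summits lay at the promoters of most host genes and at few snoRNAs. Of the 94 hosts, 62 (66.0%) had an HmgZ summit near a TSS, by the 250 bp rule, and of the 269 snoRNAs, 11 (4.09%) had one within 250 bp of their own start. The share among all 13945 protein-coding genes was 32.8%. In replicate 3's own list, cut to its 6844 strongest regions, 69 hosts and 11 snoRNA starts had a summit, and protein-coding genes had 33.1%. In replicate 1's own list 59 hosts and 15 snoRNA starts had one, and protein-coding genes had 31.2%. The host share was above the protein-coding share, and the snoRNA share below it, in both replicates. Hosts often had several TSSs, and genes with more TSSs had more chances of a summit. Among genes with 1 TSS position, 25 of 49 hosts (51.0%) had a summit, against 27.3% of protein-coding genes. With 2 or more positions it was 37 of 45 hosts (82.2%), against 48% of protein-coding genes.

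Other non-coding genes give a further background for the snoRNA starts. Of all genes of biotype ncRNA 5.58% had a TSS with a summit, and of tRNA genes 13.4%. Among genes that also lie inside another gene on the same strand, the 5' end had a summit in 4.11% of ncRNA genes, 13.6% of tRNA genes and 25.5% of protein-coding genes. The 4.09% of snoRNA starts pools 2.02% of the 247 with a host and 27.3% of the 22 without one. In the thresholded list the first, from 5 snoRNAs, was below the share for ncRNA genes inside another gene. The second was above the share for all ncRNA genes. In the own lists of replicates 3 and 1, 5 and 9 of the 247 had a summit. The ncRNA shares were taken from the thresholded list only. Of the 269 snoRNAs, 20 had under 90% unique 32-base words within 250 bp of their start, as near-identical copies have, and 0 of these 20 had a summit. Without them the share was 4.42%.

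**Figure D1:**
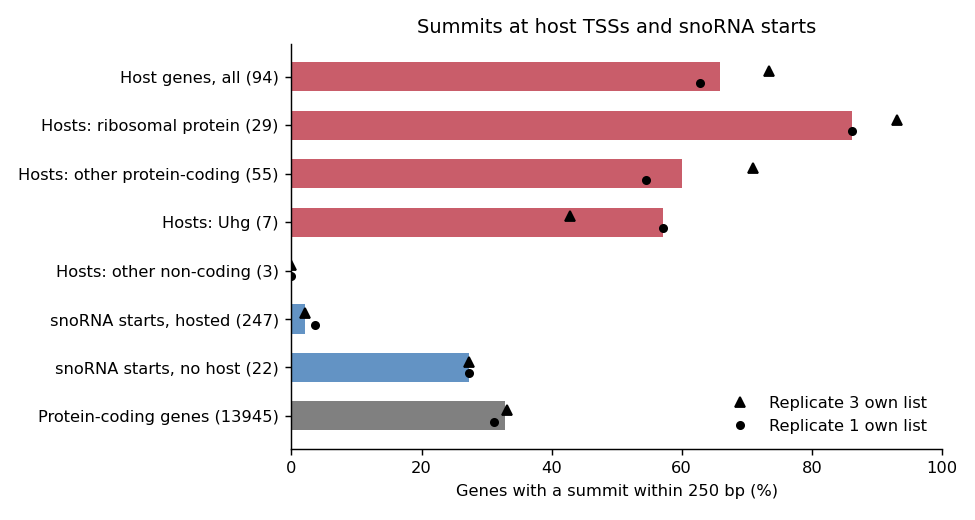
Share of genes with a summit of the thresholded list within 250 bp of a TSS (host genes, red, and protein-coding genes, grey) or of the snoRNA's own start (blue), with the number of genes in brackets; the other protein-coding hosts include 1 translation factor. Triangles and dots give the share in replicate 3's and replicate 1's own 6844 strongest regions. Ribosomal protein hosts reach 86.2% and hosted snoRNA starts 2.02%.

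The comparison within each host is given snoRNA by snoRNA. Of the 247 snoRNAs with a host, 169 had a summit at a host TSS and none at their own start, 4 had both, 1 had a summit only at its own start and 73 had neither. These snoRNAs share promoters, so they are not independent. Arpc2, Uhg1 and dom alone hold 48 of them. A host TSS was counted on either side of the snoRNA. At lola the TSS with the strongest summit lies downstream of its snoRNAs. In replicate 3 the counts were 183 with a summit only at the host, 5 with both, 0 only at the snoRNA and 59 with neither. In replicate 1 they were 138, 8, 1 and 100, in the same order. Both dom, with 15 snoRNAs, and Arpc2, with 17, had a host summit in replicate 3's own list and not in replicate 1's, and their snoRNAs make up much of the gap between the replicates.

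The few snoRNAs with both lay close to a host TSS. The start of a hosted snoRNA lay at a median of 1433 bp from the nearest host TSS (quartiles 753 and 2564 bp). Distances were taken in either direction. The nearest TSS can therefore lie downstream of the snoRNA, as in lola, eEF1alpha1 and Swim, and not be the promoter that drives it. Of the 17 snoRNAs within 250 bp of a host TSS, 3 had a summit at both, 7 at the host only and 7 at neither. A summit at the host means at any TSS of any host, which need not be the near one. For example, snoRNA:Or-CD11b began 34 bp from a TSS of RpL28 but 722 bp from the nearest summit. Similarly, snoRNA:Or-CD15 began 60 bp from the TSS of Uhg7 and 1513 bp from the nearest summit. Of the 18 that began over 250 and up to 500 bp away, 1 had both and 17 the host only. Among the 212 that began over 500 bp away, 145 had a summit at the host only, 0 had both and 1 had it only at the snoRNA. The 250 bp rule bears on this trend. A single summit can meet it at both points only when they are at most 500 bp apart, and 3 regions did so. The 0 beyond 500 bp therefore follows in part from the rule. The members nearest the edge of the window were snoRNA:Psi28S-2949 inside it, at 158 bp from a summit, and snoRNA:Me28S-A774b outside it, at 257 bp. For host TSSs they were RpS20 at 180 bp and gcl at 294 bp.

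**Figure D2:**
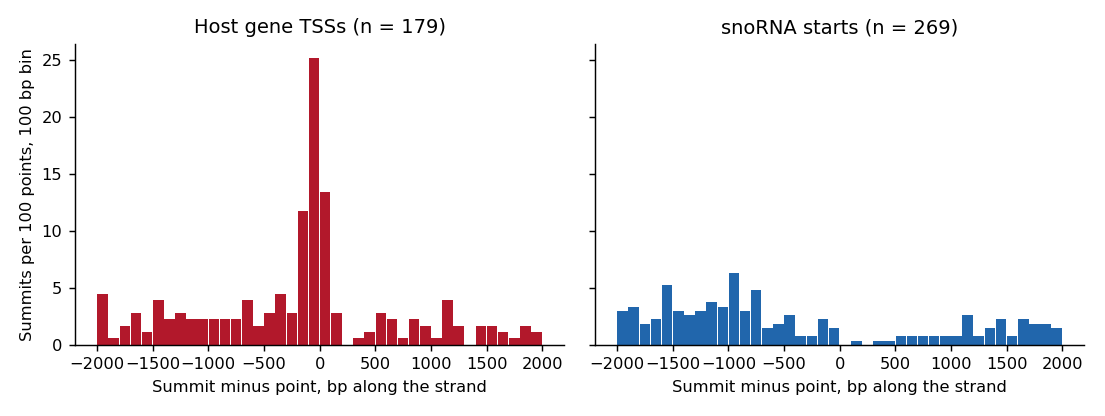
Position of thresholded summits relative to 179 TSSs of host genes (left) and to 269 snoRNA starts (right), as summits per 100 points in bins of 100 bp, with negative values upstream; 1 summit can count for several points. The bin just upstream of host TSSs holds 25.1 summits per 100 TSSs, and the bin just upstream of snoRNA starts holds 1.49 per 100 starts.

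Within the hosts, introns with and without an snoRNA were set side by side. An intron was taken as a stretch of the host covered by no annotated exon, counted once per host. Of 172 introns that held an snoRNA 7 (4.07%) had a summit, against 34 of 460 other introns (7.39%) of these hosts. Away from promoters, leaving out bases within 250 bp of any TSS, there were 9 summits in 163 kb of snoRNA-holding introns and 26 summits in 387 kb of the others. This is 0.0551 and 0.0672 summits per kb, from few summits. Introns with an snoRNA had a median length of 239.5 bp and the others 118.5 bp. A few long introns weigh heavily on these rates, such as 1 of 49822 bp with an snoRNA in Rbfox1 and 1 of 27583 bp without in Dys. The 7 introns were in eEF1alpha1, pAbp, hts, Swim, Rbfox1, CG3902 and drn, named after their values were seen, and in 2 of them, eEF1alpha1 and Swim, the summit was within 250 bp of the snoRNA start.

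Hosts that encode ribosomal proteins had summits most often. Of 29 such hosts 25 (86.2%) had one, and among ribosomal protein genes that host no snoRNA 48 of 64 (75%) did. In the own lists of replicates 3 and 1, 27 and 25 of the 29 hosts had a summit, as did 49 and 48 of the 64 other ribosomal protein genes. Median pooled signal was 308 units at the 25 hosts and 261 units at the 48 others, on the deposited scale of the list, and the quartile ranges of 233 to 480 and 200 to 391 overlapped. Of the other 55 protein-coding hosts 33 (60.0%) had a summit, 39 and 30 in the own lists of replicates 3 and 1, so the host share was above the 32.8% of protein-coding genes with ribosomal proteins set aside. Over all 62 hosts with a summit the median pooled signal was 264 units, against 215 units for protein-coding genes with a summit.

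Signal at host promoters was divided by the median of the replicate's list, and values below are multiples of that median. The strongest region was at CG1142 (chr3R:7473757-7474090), host of a small Cajal body RNA, with 16.6 in replicate 3 and 11.9 in replicate 1 (14.2 ± 3.30, SD, n = 2). RpL23A, a large-subunit ribosomal protein and host of 4 snoRNAs, followed with 13.5 in replicate 3 and 12.1 in replicate 1 (chr3L:1668610-1668905). RpL14 had 12.9 and 11.5 in replicates 3 and 1, and RpL30 had 8.86 and 11.3. All 4 lay among the 213 strongest of the 6844 regions. Of the next 8 regions by pooled signal, those of ribosomal protein genes were at RpS20 (9.85 and 9.28 in replicates 3 and 1), RpS29 (9.43 and 7.89), RpL13A (8.82 and 7.41), RpL22 (8.57 and 7.05) and RpL11 (7.01 and 8.11). Uhg4 and CG12316 (8.22 and 8.16) were also among them. Thus 8 of the 12 strongest host promoters belonged to ribosomal protein genes. Replicate 3 was the higher of the 2 at 43 of the 62 hosts, so each SD includes an offset between the lists. A region of each replicate's full list lay at all 62, and 55 of the 62 were called in both own lists of 6844.

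**Figure D3:**
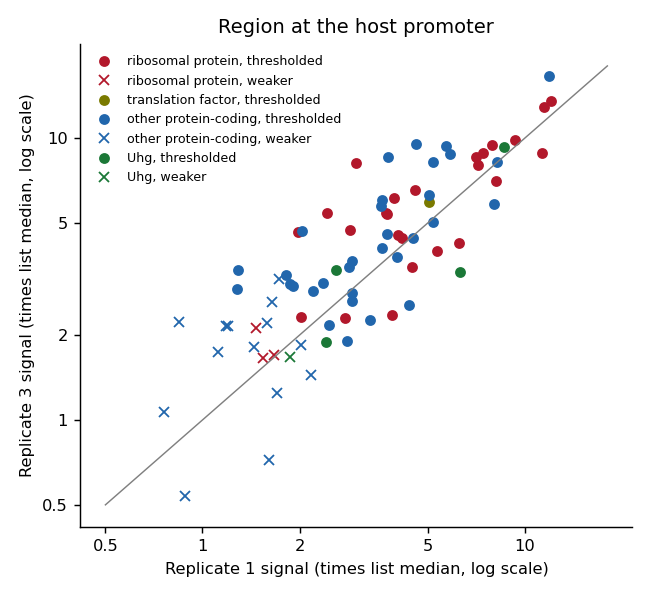
Signal of the strongest region with a summit within 250 bp of a host TSS in replicate 1 (x axis) and replicate 3 (y axis), in multiples of each list's median on log scales. Dots are hosts with a thresholded summit, crosses are hosts with a weaker region only, colours give the host class and the line marks equal values. CG1142 is the highest point, at 16.6 in replicate 3 and 11.9 in replicate 1.

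The richest hosts were a mixed group. Of the 21 hosts with 4 or more snoRNAs, 16 had a summit (76.2%), as did 13 of 18 with 2 or 3 (72.2%) and 33 of 55 with 1 (60.0%). Arpc2, a subunit of the actin-nucleating Arp2/3 complex, holds 17 Psi snoRNAs, the most of any host, and had no thresholded summit. Its promoter region (chr2L:20416968-20417371) ranked 6885 in the pooled list, just below the 6844 retained, with 3.17 times the median in replicate 3 and 1.72 in replicate 1. It was called in replicate 3's own list and not in replicate 1's. dom, a chromatin remodelling ATPase, holds 15 snoRNAs, up to 10715 bp from its TSS, and had a summit 49 bp upstream of its TSS, with 2.98 in replicate 3 and 1.91 in replicate 1. RpS5a, with 14 Psi snoRNAs, had 5.39 in replicate 3 and 3.74 in replicate 1. The translation regulator kra, with 8, had 6.02 in replicate 3 and 3.60 in replicate 1. Hrb98DE, an hnRNP protein gene with 7 snoRNAs, had 2.87 and 2.21 in replicates 3 and 1 at its promoter. RpS7, also with 7, had 2.36 in replicate 3 and 3.87 in replicate 1. Sf3b3, a splicing factor gene with 9 snoRNAs, had only a weaker region, with 1.25 in replicate 3 and 1.70 in replicate 1. lncRNA:CR45184, with 5, had no region within 250 bp of a TSS in any of the lists.

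Further protein-coding hosts of 4 or more snoRNAs had a summit at a TSS. RpL28, with 5 snoRNAs, had 8.12 in replicate 3 and 3.00 in replicate 1, a wide gap. CG10576 had 3.41 and 1.29 in replicates 3 and 1, and was called only in replicate 3's own list. RpS16 had 6.12 and 3.93, RpL17 6.55 and 4.57, and RpL3 3.99 and 5.33 in replicates 3 and 1. The transcription factor gene lola had 4.42 and 4.51 in replicates 3 and 1. Its 4 snoRNAs lie 1628 to 2238 bp from their nearest TSS, the one with this summit. That TSS is downstream of all 4 along the strand, so transcripts that start there do not contain them.

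**Figure D4:**
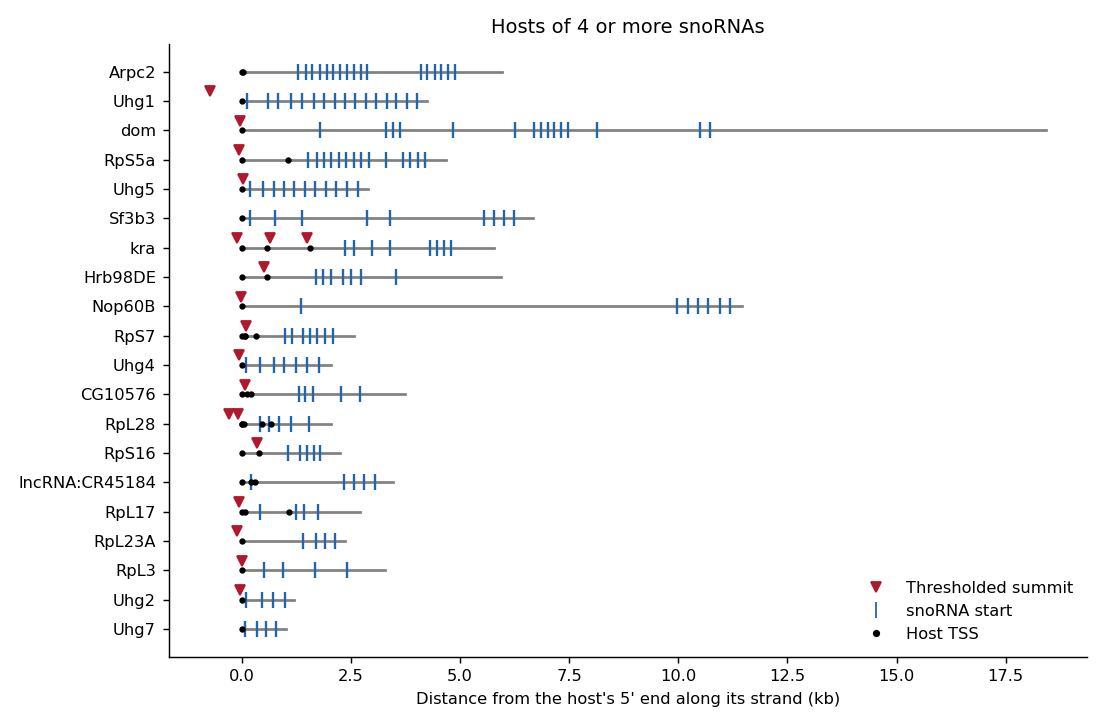
Hosts of 4 or more snoRNAs, ordered from most to fewest, drawn to scale along their strand from the 5' end (lola, a far longer gene, is not drawn). Blue ticks are snoRNA starts, black dots are TSSs and red triangles are thresholded summits; most triangles sit near a TSS, the 1 drawn for Uhg1 lies 723 bp from its TSS, and dom's 15 snoRNAs reach 10715 bp from its start, where its 1 summit lies.

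The non-coding hosts divided. Of the 7 Uhg genes in the annotation, all of them hosts, 4 had a summit. Uhg4, with 7 snoRNAs, had 9.27 times the median in replicate 3 and 8.64 in replicate 1. Uhg2 had 3.34 and 6.28, Uhg3 had 3.40 and 2.60, and Uhg5, with 11 snoRNAs, had 1.90 and 2.41 in replicates 3 and 1. Uhg5 was called in replicate 1's own list only. Uhg1, which holds 16 snoRNAs and is the second richest host, had a region with 1.67 in replicate 3 and 1.86 in replicate 1, at rank 13745 of the pooled list. Uhg7 and Uhg8 had regions with 1.41 and 1.65 in replicate 3, and replicate 1 had none there. Uhg7 lies inside RpL23A, whose promoter region was among the strongest, so its 4 snoRNAs had a host summit through RpL23A alone. The 3 other non-coding hosts, all lncRNAs, had no thresholded summit.

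Weaker regions were found at most of the 32 hosts without a summit. In the pooled list of 30000 regions, 24 of the 32 had a region that met the 250 bp rule and 8 had none. With the 62 above, 91.5% of hosts had a region in that list, against 54.6% of protein-coding genes. Of the ribosomal protein hosts among them, RpL15 had 3.49, RpL10Ab 2.12 and RpS6 1.70 times the median in replicate 3. In replicate 1 RpL10Ab had 1.46 and RpS6 1.67, and RpL15 had no region. Of the 32, 9 were called in replicate 3's own list and 2 in replicate 1's.

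Summits sat close to host TSSs. Over the 62 hosts they lay at a median of -36.5 bp, where negative values are upstream (quartiles -90.3 and -2 bp), and 47 of 62 (75.8%) were upstream. For the 4574 protein-coding genes with a summit the median was -64 bp and 82.0% were upstream. A TSS of another gene on the opposite strand lay within 500 bp upstream at 26 of the 62 hosts (41.9%), against 48.9% of protein-coding genes with a summit. At these promoters a summit cannot be given to the host alone.

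The 11 summits at snoRNA starts fell into a hosted and a hostless group. Of the 22 snoRNAs without a host 6 (27.3%) had a summit within 250 bp, against 5 of 247 with a host (2.02%). The 6 were the same in number in each replicate's own list, and the hosted snoRNAs numbered 5 and 9 in those of replicates 3 and 1. All 6 hostless summits lay upstream of the snoRNA, at 26 to 136 bp. For 5 of the 6, no annotated TSS of another gene lay within 250 bp of the summit. The exception was snoRNA:185, whose summit was also within 250 bp of the tRNA gene tRNA:Glu-TTC-1-5, with 4.36 times the median in replicate 3 and 5.09 in replicate 1.

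The hostless members differ in kind. snoRNA:Psi18S-301 (chr3R:20574906-20575043), printed above, had a summit 76 bp upstream, with 3.02 in replicate 3 and 3.95 in replicate 1. snoRNA:Psi28S-3342 (chrX:5524302-5524465), also printed, had one 26 bp upstream, with 2.88 in replicate 3 and 2.69 in replicate 1. snoRNA:Psi18S-176 had 3.62 in replicate 3 and 3.67 in replicate 1, 41 bp upstream. These 3 are named as pseudouridylation guides for ribosomal RNA. The orphan snoRNA:Or-aca4, with no assigned target in its name, had 2.82 and 2.02 in replicates 3 and 1. It lies inside CG10936 and CG44403, which are on the opposite strand. The snoRNA at chr2R:13557905-13558055, named only by position, had 2.13 in replicate 3 and 4.08 in replicate 1 and is the first along the strand of 3 adjoining hostless snoRNAs. The same summit lay 317 bp from the start of the next of these, at chr2R:13557700-13557850, and 481 bp from that of snoRNA:Psi28S-1153. A second hostless cluster on 2R lies inside egr, a gene on the opposite strand. It had a summit between its members, 459 bp from snoRNA:Or-ACA6, 538 bp from snoRNA:Or-CD13 and 860 bp from scaRNA:MeU1b-A234.

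**Figure D5:**
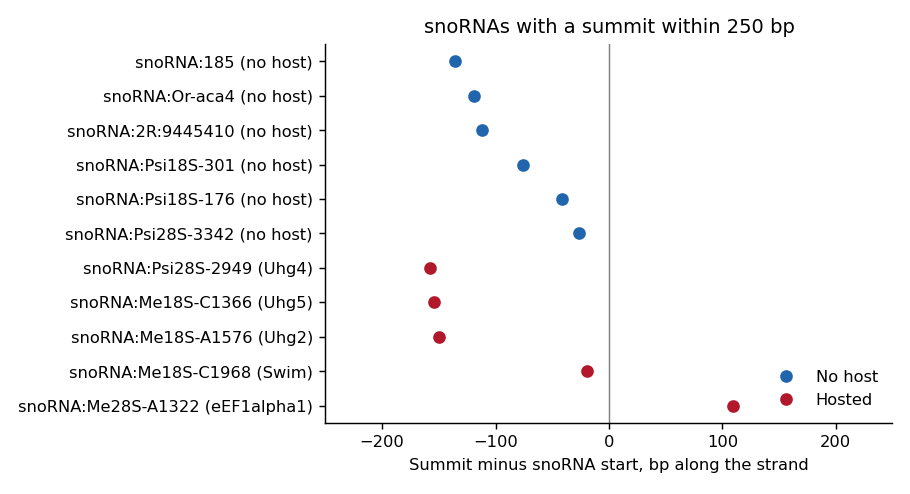
The 11 snoRNAs with a thresholded summit within 250 bp of their start, with the position of the summit along the strand (x axis, bp, negative upstream) and the host in brackets. Blue dots are the 6 snoRNAs without a host, all upstream by 26 to 136 bp, and red dots are the 5 hosted ones, from 158 bp upstream to 109 bp downstream.

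Among the 5 hosted snoRNAs with a summit, 3 are the first in a Uhg gene. snoRNA:Me18S-A1576 in Uhg2, snoRNA:Psi28S-2949 in Uhg4 and snoRNA:Me18S-C1366 in Uhg5 begin 96, 99 and 181 bp from the TSS, and their summit is the one at the Uhg promoter, 150 to 158 bp upstream of the snoRNA. snoRNA:Me28S-A1322 lies in the elongation factor gene eEF1alpha1, 419 bp upstream of its nearest TSS. It had an intronic summit 109 bp downstream of its start, with 2.25 in replicate 3 and 2.20 in replicate 1. This summit lay between the snoRNA start and that TSS, over 250 bp from the TSS. snoRNA:Me18S-C1968 is in a 9334 bp intron of Swim, and the nearest Swim TSS is 4219 bp downstream of it. This snoRNA had a summit 19 bp upstream with 2.10 in replicate 3 and 2.48 in replicate 1. It was called in replicate 1's own list and not in replicate 3's, and Swim had no thresholded summit at a TSS.

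The U3 genes, whose RNA acts in cleavage of the ribosomal RNA precursor, have no host. None of the 3 had a thresholded summit. snoRNA:U3:9B had a weaker region with 1.36 times the median in replicate 3 and 1.27 in replicate 1. The copies snoRNA:U3:54Aa and snoRNA:U3:54Ab had 0.806 and 1.15 in replicate 1 and no region in replicate 3, and only 14.9% of the 32-base words around each were unique in the genome. None of the 16 scaRNAs, which guide modification in Cajal bodies, had a summit at its start, and of the 14 with a host 8 had one at the host TSS. By name, a host summit was found for 78 of 101 hosted Psi snoRNAs, 51 of 74 Me snoRNAs and 14 of 15 orphans. These counts are of snoRNAs that share hosts, so 1 promoter such as that of Arpc2 weighs on them many times.

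Promoter sequence of the hosts was searched from 250 bases before to 50 after the 5' end of the gene. The core of the initiator found at ribosomal protein genes, taken as CTTTC or CTTTT on the coding strand within 10 bases of the start, was in 11 of 29 ribosomal protein hosts (37.9%) and 3 of 7 Uhg genes (42.9%). It was in 3 of 54 other protein-coding hosts (5.56%), against 5.01% of all protein-coding promoters. Ribosomal protein genes that host no snoRNA had it in 20 of 64 (31.3%). RpL14, RpL23A, RpL3 and RpS5a, hosts with this core and a summit, are shown, from 10 bases before the annotated TSS, with the core in capitals. The capitals begin at -1 bp from the TSS in RpL14, at 3 bp in RpL23A and RpL3 and at 4 bp in RpS5a. A match under this rule is thus near the annotated start and need not lie at it.
RpL14 (chr3L:8600996-8601015, plus strand): aaaaaagttCTTTCcttctc
RpL23A (chr3L:1668645-1668664, minus strand): cccctcagttttcCTTTTca
RpL3 (chr3R:11221884-11221903, plus strand): gtcggaatcgtttCTTTTcc
RpS5a (chrX:17148255-17148274, minus strand): tgccgtaacatgttCTTTTt

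The core of the motif bound by the zinc finger factor M1BP, GGTCACAC on either strand, was in 10 of 62 host promoters with a summit (16.1%) and 1 of 32 without (3.13%). Over protein-coding genes it was in 15.1% of promoters with a summit and 4.08% of those without. The core of the DNA replication-related element, ATCGAT, was in 22 of 62 host promoters with a summit (35.5%) and 11 of 32 without (34.4%). Over protein-coding genes it was in 35.7% of promoters with a summit and 17.2% of those without. Over all protein-coding promoters GGTCACAC was in 7.70% and ATCGAT in 23.3%. In windows of this length at snoRNA starts, GGTCACAC was in 1 of 269 and ATCGAT in 31 of 269 (11.5%), and neither was in the 6 hostless ones with a summit. The M1BP core is shown in capitals for the strongest host promoter (CG1142), the ribosomal protein host RpL30 and the rich host CG10576.
CG1142 (chr3R:7473765-7473794, minus strand): tactactacacGGTCACACtgtttgtatgt
RpL30 (chr2L:19009261-19009290, minus strand): atccccccgtcGGTCACACcaacacaaacg
CG10576 (chr3L:5765814-5765843, minus strand): attccacaagcGGTCACACtgtgatggtat

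Genes for the proteins that snoRNAs work with were taken from a list of 20 symbols, of which 17 were found in the annotation, older symbols included. Of the 17, 13 had a summit at a TSS, against 32.8% of protein-coding genes. Of the box C/D core proteins, Fib, the methyltransferase fibrillarin and itself a host, had 8.79 in replicate 3 and 5.84 in replicate 1. Nop56 had 2.99 and 2.86 in replicates 3 and 1, while nop5, a host (2.15 and 1.18), and hoip (no region in replicate 3 and 2.16 in replicate 1) had no thresholded summit. Of the box H/ACA core, NHP2 (6.13 and 4.55 in replicates 3 and 1), Nop10 (3.39 and 2.75) and Nop60B (3.02 and 1.87), a host of 7 snoRNAs, had one, and Gar1 did not (1.70 and 1.69). The assembly ATPases pont and rept had 8.71 and 5.15 in replicate 3 and 5.67 and 3.83 in replicate 1. The other members with a summit were CG10341 and spag in assembly, U3-55K of the U3 particle, ldbr, which opens intron lariats, and the exonucleases Rat1 and Rrp6. Nufip, another assembly factor, had no region in the lists of the replicates.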

How the data were processed

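Per the text deposited with the files, regions were called by the authors on dm6 for each replicate and for both together, with the same control alignment, and these 3 lists gave the IDR-thresholded one. No aligner or peak caller is named there. The deposited signal of a region is on a scale that is not stated and is not shared by the lists. The deposited -log10 q-value was left unused. Summits (start plus offset) were compared with TSSs and snoRNA starts of Ensembl release 115 on the 6 main chromosome arms, which hold all regions. Pseudogenes and transposable elements were left out. Signal was divided by the median of its list. Chromatin was sheared to 200 to 800 bp per the labels, which limits the resolution.

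Replicates are separate biological samples per the labels. No p-value was computed. The window rule was checked on summits planted at known TSSs. Named were every snoRNA with a summit within 250 bp, hosts of 4 or more snoRNAs, the 12 strongest host promoters, every Uhg gene, hostless snoRNAs with a summit within 1000 bp, the members nearest the window's edge and the snoRNP genes, though some items under this rule are not reported here. Other genes named were chosen after their values were seen. Members and lists were chosen with earlier results of these data known. Software was Python 3.11.15 with numpy 2.4.6 and pandas 2.3.3.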

Additional observations from a re-analysis of the deposited data

How the results depend on the processing

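In each alternative tried, the share of host genes with a summit was above that of snoRNA starts. For snoRNA starts (4.09%), windows of 100, 500 and 1000 bp gave 1.49%, 8.92% and 28.3%, the 3422 strongest regions gave 2.23% and all 30000 pooled regions gave 19.0%. The replicates' own lists gave 4.09% to 5.58%. For hosts (66.0%), 100 bp gave 55.3%, the strongest regions 45.7%, all pooled regions 91.5%, and leaving out ribosomal protein hosts, an alternative added after the data were seen, 56.9%. The replicates' own lists gave 62.8% to 73.4%. For hosted snoRNAs with a summit at the host only (68.4%), 1000 bp gave 54.7% and the strongest regions 41.3%, and the own lists gave 55.9% to 74.1%. Counting region overlap, only the gene's 5' end or only sites with unique 32-base words moved none of the 3 shares by more than the SD of the own lists, nor did taking 1 snoRNA per host move the last. No paired analysis was possible because there is 1 group. Depth is unknown, so a start without a region cannot be called unbound.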
